A study of Mus musculus with 12 samples.

Results

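The introns described here are those that control N2A cells already kept in a sizeable share of their transcripts. N2A is a mouse neuroblastoma line. An intron was taken when it was 121 to 4999 nt long, had at least 10 inclusion plus exclusion reads in each of the 12 libraries, and had a mean PSI of 20 or more over the 4 control libraries. PSI is the percentage of reads at an intron that come from the unspliced form. This rule gave 1378 introns out of 160022 introns in the splicing table, which is 1.94% of the 70912 introns of the same lengths and read minimum. They lay in 1061 genes. The members were chosen by their measured PSI in the control libraries, so control values and every difference from control are given as a description, with no test. Induced and knockdown libraries were not used by the rule, and differences between those are tested.

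Every line was derived from N2A Flp-In rtTA3 cells and carried a siRNA-resistant, N-terminally 3xFlag-tagged Puf60 cDNA under doxycycline control, in addition to its own Puf60 gene. The pEx5 line had the cDNA with exon 5 and the mEx5 line the cDNA without it. Induced cells received Puf60 siRNA (siPuf60, 15 nM) and, 24 h later, 2 µg/ml doxycycline for 24 h. Knockdown cells received the same siRNA and no doxycycline, and control cells a non-targeting siRNA (siNTC, 15 nM) and no doxycycline. For the libraries with doxycycline the description label calls the cDNA uninduced and also names an induction, and the treatment label was followed here. Cells were harvested 48 h after transfection, in 2 libraries per group, A and B. No group had doxycycline with siNTC, so an effect of the drug and an effect of the cDNA cannot be told apart. The series text calls A and B biological duplicates without saying what was repeated, so a p-value here covers the scatter between these libraries and no more. In the authors' deposited table, which gives 1 value per group, Puf60 was at 246 RPKM in induced, 22.05 RPKM in knockdown and 107 RPKM in control cells of the pEx5 line. In that deposited table the mEx5 line had 202 RPKM in induced, 25.2 RPKM in knockdown and 103 RPKM in control cells. The neuroblastoma markers Phox2a (61.1 to 93.9 RPKM), Hand2 (185 to 217 RPKM) and Stmn2 (218 to 287 RPKM) were present in every group of the same table, whereas Th (0.08 to 0.62 RPKM) was near 0. Sox10 of Schwann cells and oligodendrocytes was listed at 0, and the fibroblast gene Col1a1 was at 0.01 to 0.03 RPKM.

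Intron retention is the failure to remove an intron from an otherwise spliced RNA. Such RNAs are often held in the nucleus, removed by nonsense-mediated decay or kept as a store that is spliced later, and retained introns tend to be short and rich in G and C. Puf60 is a relative of the U2AF large subunit that binds the pyrimidine-rich stretch before the 3′ end of an intron and helps the U2 particle to settle at the branch point. An intron has an upstream junction with the exon before it (its 5′ splice site) and a downstream junction with the exon after it (its 3′ splice site). Both are crossed by reads of the unspliced form, while spliced reads join the exons.

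The 3′ splice sites of some members are shown because that is where Puf60 acts. They are the 8 with the largest higher and 3 of the 4 with the largest lower PSI in induced against knockdown cells among called members (defined below) that lie between coding exons and are covered whole by an annotated exon, so that the transcript sequence holds them. Each line gives the last 30 bases of the intron and 3 bases of the next exon, 5′ to 3′ on the transcribed strand, with the AG that ends the intron in capitals. Positions of the introns are in GRCm38 with GENCODE M21. The first 8 introns had a higher PSI in induced cells.
Rgl3, chr9:21976978-21977189, minus strand: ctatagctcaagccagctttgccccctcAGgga
Ushbp1, chr8:71395172-71395339, minus strand: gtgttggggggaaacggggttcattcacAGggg
Ppapdc1b, chr8:25721787-25722429, plus strand: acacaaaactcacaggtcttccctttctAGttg
0610037L13Rik, chr4:107894939-107896870, plus strand: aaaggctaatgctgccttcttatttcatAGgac
D4Wsu53e, chr4:134925433-134926734, plus strand: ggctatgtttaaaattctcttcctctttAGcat
Snx32, chr19:5496403-5496985, minus strand: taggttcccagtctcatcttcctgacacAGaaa
Pigq, chr17:25931039-25931461, minus strand: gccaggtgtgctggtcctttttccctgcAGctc
Aatk, chr11:120008445-120009274, minus strand: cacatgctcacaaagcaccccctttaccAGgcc

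The other 3 introns had a lower PSI in induced cells.
Ip6k2, chr9:108796397-108798109, plus strand: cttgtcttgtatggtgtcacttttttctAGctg
Setd5, chr6:113109991-113110373, plus strand: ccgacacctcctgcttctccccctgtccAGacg
1300018I17Rik, chr8:123245211-123245506, minus strand: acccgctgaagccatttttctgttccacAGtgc

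In the 20 bases that end 3 bases before the intron's end, the share of pyrimidines (C or T) was 35% for Ushbp1 and 65% to 80% for the other 7 introns of the first set, against 65% to 90% for the 3 of the second. The Ushbp1 site was thus the poorest in pyrimidines of those shown. At the 5′ splice site, Ushbp1 had cctGTAAGT and Rgl3 aagGTTTGA, where capitals mark the first 6 intron bases. These are the shortest introns of those shown and are given whole, with the first and last 2 intron bases in capitals.
Rgl3 intron, 212 nt: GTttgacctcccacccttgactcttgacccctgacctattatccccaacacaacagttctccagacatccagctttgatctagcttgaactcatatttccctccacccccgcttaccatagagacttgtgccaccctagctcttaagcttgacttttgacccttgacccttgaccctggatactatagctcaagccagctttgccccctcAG
Ushbp1 intron, 168 nt: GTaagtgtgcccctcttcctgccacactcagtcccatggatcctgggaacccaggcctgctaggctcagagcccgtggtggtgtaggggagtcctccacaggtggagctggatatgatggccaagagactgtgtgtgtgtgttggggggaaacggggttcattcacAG
G and C made up 50.5% of the Rgl3 intron and 58.9% of the Ushbp1 intron.

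Most of the 1378 introns were partly retained. In the controls 554 had a mean PSI of 20 to 30, 403 of 30 to 50, 228 of 50 to 80, 106 of 80 to 95 and 87 of 95 or more, with a median of 34. The members just inside the threshold were introns of Unc13a at 20.005, Cdh24 at 20.022 and Sipa1 at 20.03, and the introns just outside it were those of Zfp90 at 19.99, 1700094D03Rik at 19.992 and Dus3l at 19.995. At the upper end, 20 introns had a PSI of 100 in all 12 libraries. Among introns with at least 50 reads everywhere, the highest control PSI of 100 was that of Arv1, a gene of sterol homeostasis, Btbd9, Gm12070, Il18bp, which encodes a secreted blocker of interleukin 18, Lepre1, a collagen prolyl hydroxylase, and Mtus2. The next were Lrp8, a reelin receptor, at 99.88, Grhl2, an epithelial transcription factor, at 99.84, Ap4b1, a subunit of the AP-4 adaptor, at 99.82 and Aktip at 99.8. In all 10 the induced, knockdown and control libraries overlapped. Control reads of Arv1 were at the upstream junction only (789 reads). Those of Gm12070 (25217 reads), Mtus2 (593), Grhl2 (1168) and Aktip (117) were at the downstream junction only. These values are thus not those of introns shown to be retained whole. Btbd9, Il18bp, Lepre1, Lrp8 and Ap4b1 had control reads at both junctions.

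The members were short: their median length was 675 nt (quartiles 320 and 1510 nt), against 1160 nt (quartiles 521 and 2170 nt) for the 69534 introns of the same range and read minimum with a control PSI under 20. Of the members, 1345 (97.6%) were found in GENCODE M21 by gene, strand and lengths. An annotated exon covered 31% of the matched members whole, against 5.15% of the other introns. First introns made up 20.5% of matched members, against 5.51% of the other introns. Members lay between coding exons in 79.8%, against 97.1% of the other introns. For the introns whose sequence an annotated exon holds (417 members and 3545 other introns), the median share of G and C was 53.3% in members and 48.7% in the other introns. The median share of pyrimidines before the 3′ splice site was 70% in both, and T alone made up 35% in members and 40% in the other introns. Starts of GTAAGT or GTGAGT, read on the transcribed strand only, were found in 21.6% of these members and in 25.8% of these other introns. These are descriptions; introns were not treated as replicates of a condition.

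Reads at the 2 junctions were not always even, as they would be for an intron retained whole. In 553 members (40.1%) the authors' balance test, deposited with each PSI, gave a p of at least 0.05 in all 12 libraries. Reads at both junctions were present in the controls for 1251 members, and for 680 the 2 junctions were within 2-fold of each other. The upstream junction had over 2-fold more control reads in 296 members and the downstream junction in 402. Where an annotated exon reached over the upstream junction only (193 members), the upstream junction was the higher one in 97 and the downstream one in 22. Where it reached over the downstream junction only (230 members), the upstream junction was the higher one in 25 and the downstream one in 130. A p of at least 0.05 shows only that unevenness was not detected at the depth of that library. Of the 553 members, 51 had an annotated exon over the upstream junction only and 48 over the downstream junction only. The members are thus introns with a control PSI of 20 or more, and not each of them is an intron retained whole.

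Median PSI over the 1378 introns was 38.4 and 40.6 in the induced, 36 and 36.8 in the knockdown and 32.6 and 36 in the control libraries of the pEx5 line. In the mEx5 line it was 42.8 and 42.9 in the induced, 39.1 and 38 in the knockdown and 35.4 and 36.2 in the control libraries. The induced libraries were thus above the knockdown libraries of the same line in both lines. Introns with a control PSI of 10 to 20 moved the same way. Their medians were 14.6 and 15.2 in induced and 13.1 and 13.4 in knockdown libraries of pEx5. In mEx5 they were 16.2 and 16.5 in induced and 14.9 and 13.6 in knockdown libraries. Their median induced minus knockdown difference was 1.76 points, and it was 0.84 points at a control PSI of 5 to 10. The median difference of induced minus knockdown cells over all members was 2.75 points (quartiles -2.47 and 8.93), with 879 members above 0, 471 below 0 and 28 at 0. By line and letter it was 2.15 and 3.33 points in pEx5 and 2.13 and 3.04 points in mEx5. A single member varied more than that, since the median gap between libraries A and B of a group was 5.19 to 6.71 points. Member reads summed to 159056 to 209602 in the induced libraries, 182118 to 254764 in the knockdown libraries and 179078 to 279390 in the control libraries. The part of this depth difference in the results was not tested. Counted per 1000000 spliced reads over all introns, members had 2130 to 2190 unspliced reads in induced cells, 1950 to 2070 in knockdown cells and 1940 to 1990 in control cells, taking the mean of both junctions. Their spliced reads were 2340 to 2540 on the same scale in induced, 2540 to 2610 in knockdown and 2470 to 2570 in control cells. Within each line, both induced libraries had more unspliced and fewer spliced member reads than both knockdown libraries. In bulk RNA, retention in some cells and partial retention in every cell cannot be told apart.

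**Figure D1:**
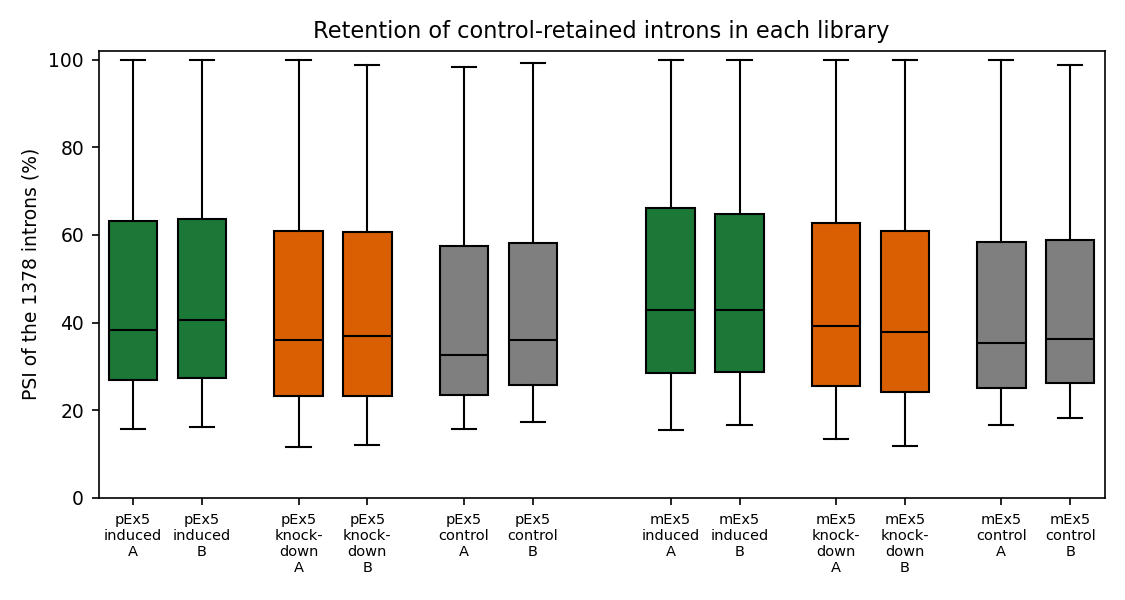
PSI of the 1378 introns in each of the 12 libraries (vertical axis, percent), with induced, knockdown and control cells of each line from left to right. Boxes span the quartiles with the median as a line, and whiskers the 5th to 95th percentiles. Medians are 38.4 to 42.9 in induced, 36 to 39.1 in knockdown and 32.6 to 36.2 in control libraries.

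Induced cells were tested against knockdown cells, a contrast that holds both doxycycline and the cDNA. Control-retained introns were more often higher than lower in induced cells, with a smaller set moving the other way. The test was limma on the logit of inclusion reads with weights from read depth, fitted on 22770 splicing events, of which 1289 were members and 8863 introns. An intron was called where its adjusted p (Benjamini-Hochberg, over all 22770 events) was under 0.05 and its PSI differed by 10 points or more. The other 89 members had a mean PSI above 95 and were not fitted. With both lines together, PSI was higher in 159 members (12.3% of the 1289) and lower in 46 (3.57%). Of all introns in the fit, 3.64% were called higher and 2.05% lower. Over all 22770 events of every type, 8.88% were called higher and 2.59% lower, so these too were more often higher. The share of members called higher was thus above that of introns at large and nearer to that of all events. Of the 323 introns called higher, 159 were members. The same test without the limit on mean PSI called 75 members in place of 205. Of the 1378 members, 159 (11.5%) had all 4 induced libraries above all 4 knockdown libraries and 45 (3.27%) had them all below. The same shares were not counted over other introns or events, so these numbers describe the members only. Among called members, groups were apart in 104 of the 159 higher and in 32 of the 46 lower ones.

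In the pEx5 line alone 69 members (5.35%) were higher and 26 (2.02%) lower. There, 1.46% and 1.09% of all introns in the fit were called, and 5.87% and 1.41% of all events. In the mEx5 line alone 103 (7.99%) were higher and 33 (2.56%) lower. There, 3.17% and 1.65% of all introns in the fit were called, and 7.95% and 2.45% of all events. The member shares in single lines were thus near those of all events. These lines share no library. Of the higher members, 34 were called in each line singly, which is 49.3% of the pEx5 list and 33% of the mEx5 list. Of the lower members, 9 were called in each, which is 34.6% of the pEx5 list and 27.3% of the mEx5 list. Of the 69 higher in pEx5, 63 had the same sign in mEx5, and of the 103 higher in mEx5, 95 had the same sign in pEx5. Over all 1289 members, 612 were above 0 in both lines, 266 were below 0 in both and 411 had another pattern. Leaving out 1 of the 4 induced or knockdown libraries of a line left 41 to 57 calls of 95 in pEx5 and 69 to 85 calls of 136 in mEx5.

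**Figure D2:**
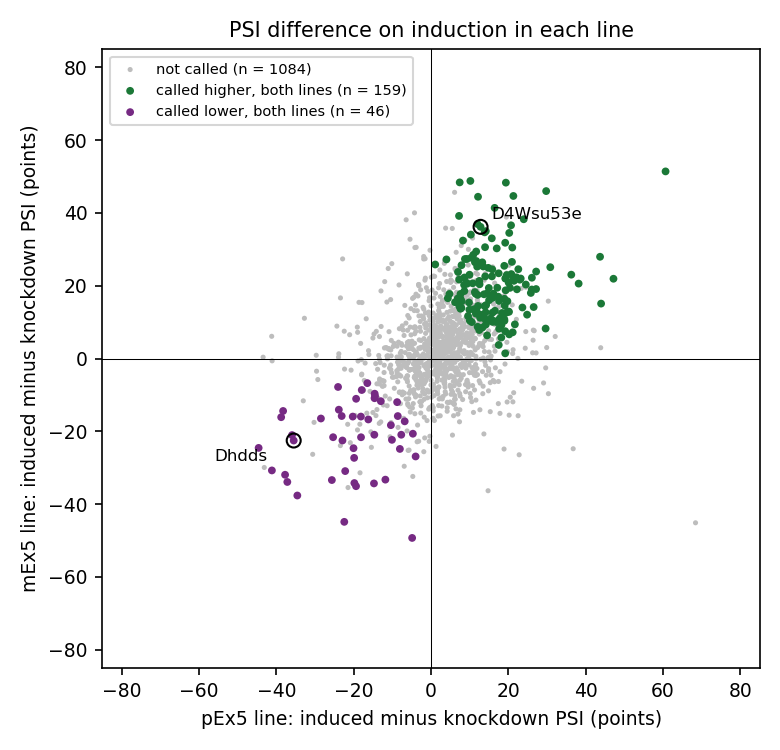
Difference in PSI of induced minus knockdown cells in the pEx5 line (horizontal axis, points) and in the mEx5 line (vertical axis, points) for the 1289 introns in the fit. Green points are the 159 called higher and purple points the 46 called lower over both lines, and grey points are not called. Circles mark D4Wsu53e and Dhdds, where the effect of induction differed between the lines by the test.

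Introns that were higher on induction tended to be short and lower ones long. Median lengths were 462 nt for the 159 higher, 1190 nt for the 46 lower and 692 nt for the 1084 members not called. Of the members from 121 to under 200 nt long, 20.5% were called higher and 0% lower, while of those from 2000 to under 5000 nt 6.17% were called in each direction. No unevenness by that test was found for 92 of the 159 higher and for 11 of the 46 lower introns. Among the 536 such members in the fit, 17.2% were higher and 2.05% lower. Of the matched higher introns 44.9% were covered whole by an annotated exon, against 15.6% of the lower ones. By control PSI, 11% of members at 20 to 30 were called higher, 14.6% at 30 to 50, 14.5% at 50 to 80 and 6.06% at 80 to 95. Below the threshold of the rule, 2.48% of introns with a control PSI of 10 to 20 and 0.468% of those at 5 to 10 were called higher. Introns called lower were 4.15%, 2.73%, 2.63% and 6.06% of the same 4 classes of members. A difference of 10 points is harder to reach near either end of the scale, which limits the comparison of these classes.

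**Figure D3:**
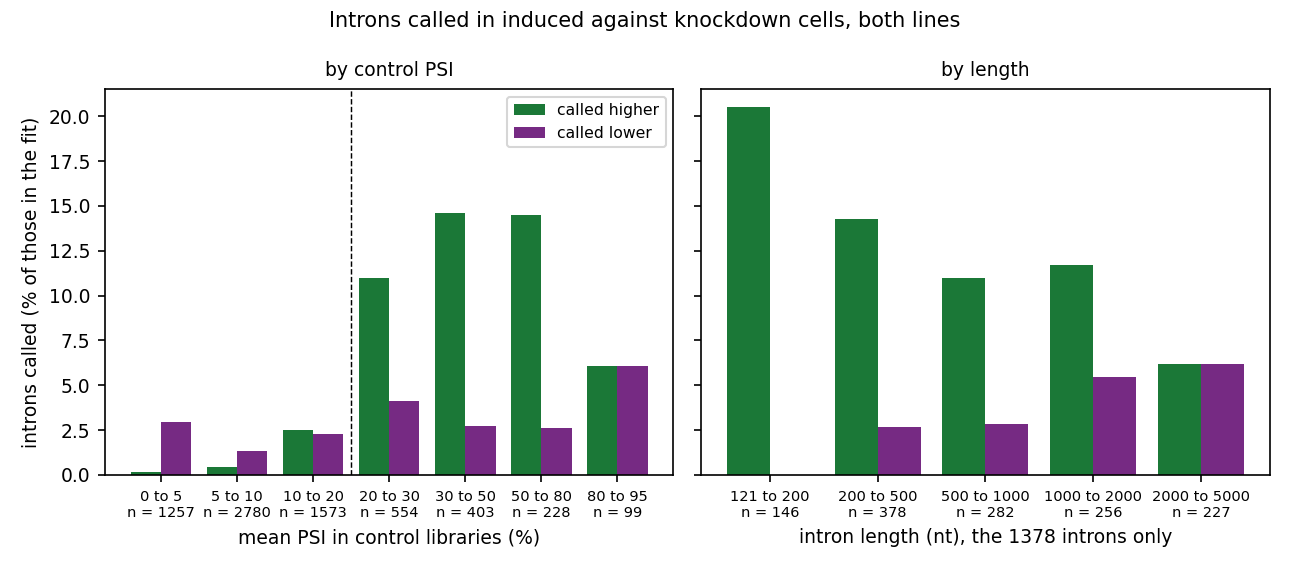
Share of introns in the fit called higher (green) or lower (purple) in induced than in knockdown cells of both lines (vertical axis, percent), by mean control PSI (left) and, for the members alone, by length (right). The dashed line marks the control PSI of 20 that defines the members. The share called higher is 2.48% just left of it and 11% just right of it, and it is 20.5% among members from 121 to under 200 nt.

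The introns with the largest gains were spread over unrelated genes. Tradd encodes the adaptor that links the tumour necrosis factor receptor to its signalling partners. The PSI of its 534 nt intron was 44.1 and 44.9 in pEx5 and 60.5 and 67.6 in mEx5 induced cells, against 16.8 and 12.6 in pEx5 and 13.1 and 23 in mEx5 knockdown cells. It was 38.9 and 46.3 in pEx5 and 53.8 and 60.9 in mEx5 control cells. All induced values lay above all knockdown values, and they overlapped the control range. The mean was 54.3 ± 11.7 in induced and 16.4 ± 4.78 in knockdown cells (SD, n = 4 libraries each), a difference of 37.89 points (limma, adjusted p = 3.17e-06). The gain was at the downstream junction, with 378 reads in the 4 induced and 137 in the 4 knockdown libraries, while the upstream junction had 50 reads in the induced and 49 in the knockdown libraries. An annotated exon reached over that downstream junction only.

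The intron of 603 nt in Ccdc136 had a PSI of 93.5 to 100 in the induced, 25.9 to 63.2 in the knockdown and 76 to 100 in the control libraries. Its difference of 56.04 points was the largest gain among the called members (adjusted p = 0.00292), though on as few as 11 reads in a library. An intron of 1960 nt in 2610318N02Rik stood at 57.3 to 72 in the induced, 22.9 to 35.5 in the knockdown and 61.2 to 83.3 in the control libraries (difference 35.83, adjusted p = 0.000195). Its spliced reads numbered 72 in induced, 349 in knockdown and 72 in control cells. In both genes the induced libraries did not overlap the knockdown libraries.

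Spnb4, which encodes βIV spectrin of the axon initial segment, had 2 such introns. The one of 873 nt was at 57.6 and 40.2 in pEx5 and 83.2 and 78.3 in mEx5 induced cells, against 32.2 and 23.1 in pEx5 and 33.9 and 38.2 in mEx5 knockdown cells, with 51.6 to 68.8 in controls (difference 32.98, adjusted p = 0.000244). The one of 647 nt averaged 50.2 ± 20.1 in induced and 19 ± 10.1 in knockdown cells (SD, n = 4 each; difference 31.12, adjusted p = 0.00475). For both introns the mEx5 induced libraries were above the pEx5 induced ones. In Rgl3, a Ral exchange factor, PSI was 59.3 to 84.2 in induced and 8.5 to 64 in knockdown cells, which overlapped, with a difference of 34.55 points (adjusted p = 0.00483). The other introns named by size were those of Elovl1, an elongase of very long fatty acids, Ushbp1, the lipid flippase gene Atp8b3, the palmitoyltransferase gene Zdhhc1, and the transporter genes Slc35c2 and Slc26a11, with gains of 28.92 to 33.84 points and adjusted p of 0.00455 to 0.0384. Each of these 6 introns had 11 to 43 reads in its shallowest library, and in 4 of them the induced and knockdown libraries overlapped.

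The introns with the largest losses on induction were mostly longer. Rcbtb1, a gene with RCC1 and BTB domains, had the tightest values. The PSI of its 4678 nt intron was 41.3 and 42.2 in pEx5 and 42.9 and 41.3 in mEx5 induced cells, against 81 and 78.1 in pEx5 and 75.5 and 72.6 in mEx5 knockdown cells. Control cells were at 26.5 to 33. Every induced library lay between the knockdown and the control libraries. The mean was 41.9 ± 0.81 in induced and 76.8 ± 3.58 in knockdown cells (SD, n = 4 each), a difference of -34.85 points (adjusted p = 2.11e-07). Both junctions moved together, with 189 upstream and 337 downstream reads in induced and 480 upstream and 773 downstream reads in knockdown cells, while spliced reads were 364 in induced and 188 in knockdown cells.

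Cep70, a centrosomal protein gene, had a 2776 nt first intron at 16.6 to 34.3 in induced, 54.6 to 74.6 in knockdown and 14.1 to 25.9 in control cells (difference -36.12, adjusted p = 5.42e-05). In the 4 induced libraries its downstream junction had 129 reads and its upstream junction 0, and in the 4 knockdown libraries they had 314 and 4 reads. An annotated exon reached over the downstream junction only. Map2k7, the kinase gene upstream of JNK, had 2 such introns, with differences of -35.96 (1654 nt, adjusted p = 0.00651) and -28.5 points (2568 nt, adjusted p = 0.00505). For each of them the induced and knockdown libraries were apart. The 1654 nt intron had 3 upstream and 33 downstream reads in induced and 5 upstream and 59 downstream reads in knockdown cells. An intron of 3507 nt in Plekha6 was at 30.6 to 51.9 in induced and 73.3 to 84.6 in knockdown cells (difference -35.55, adjusted p = 0.0031). One of 3534 nt in 4931428F04Rik was at 29.2 to 39 in induced and 48.4 to 77.8 in knockdown cells (difference -34.58, adjusted p = 0.000417). Neither overlapped between the groups. Beside Dhdds, treated below, BC024814, the H2A.Z-binding protein gene Pwwp2a, the inositol phosphate kinase gene Ip6k2, the corepressor gene Tle1 and Arpp21 completed the named losses, with -33.66 to -27.1 points and adjusted p of 0.00308 to 0.0303. In Arpp21 the difference was -49.3 points in mEx5 (adjusted p = 0.0017) and -4.9 points in pEx5, where it did not pass (adjusted p = 0.624). The difference between these effects did not pass either (44.4 points, adjusted p = 0.212). The Tle1 intron had 0 reads at its downstream junction and that of Arpp21 0 at its upstream junction in all 8 libraries compared. Of the 24 introns named by size, 7 were also called in each line singly, 12 in 1 line and 5 in neither.

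**Figure D4:**
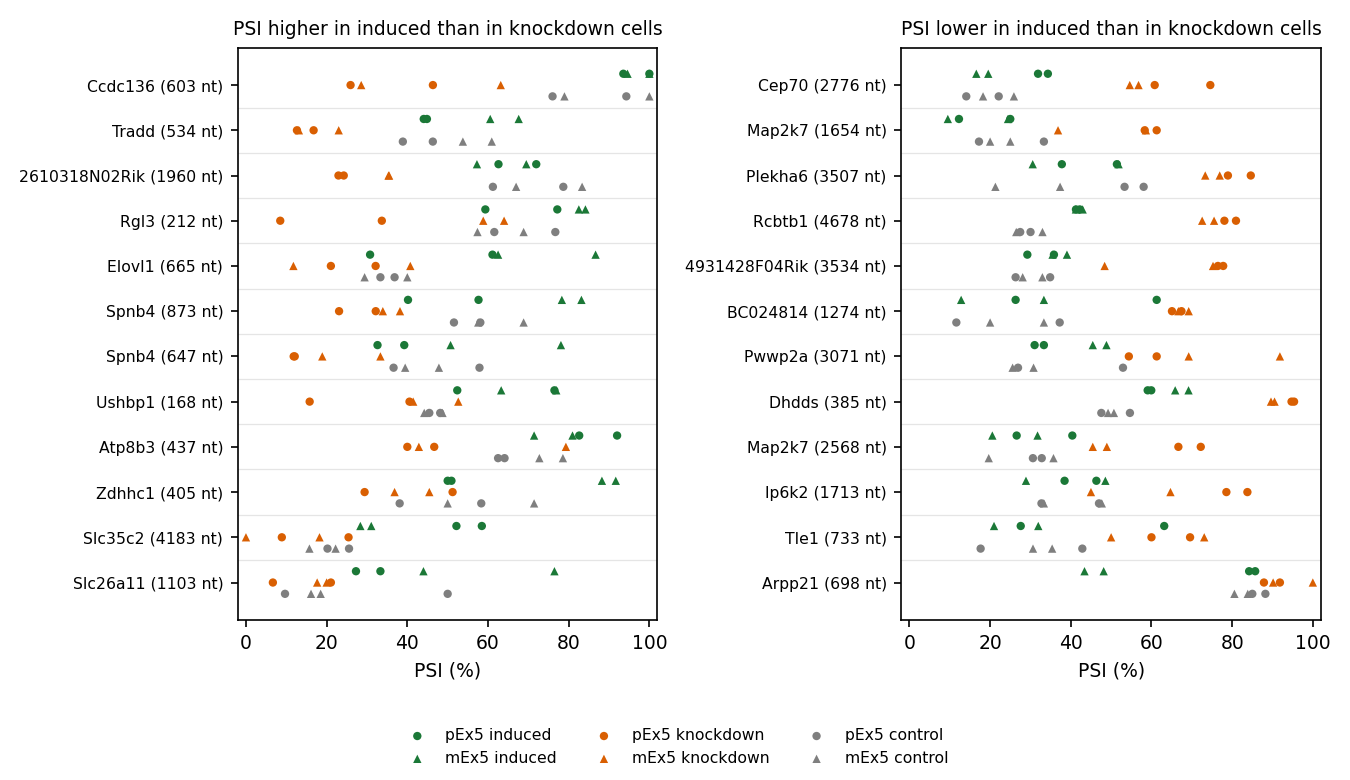
PSI (horizontal axis, percent) of the 24 introns named by size of the difference, with higher introns on the left and lower ones on the right. Each intron has 12 libraries, drawn as circles for pEx5 and triangles for mEx5, with induced cells above knockdown and control cells. In Rcbtb1 the induced libraries sit at 41.3 to 42.9, between knockdown at 72.6 to 81 and control at 26.5 to 33.

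The lines differed in 2 introns when the effect of induction itself was compared, both of them deeply covered. D4Wsu53e, named Rsrp1 in the reference and encoding an arginine and serine rich protein, had 1087 or more reads at its 1302 nt intron in every library. PSI was 41.2 and 42.1 in pEx5 induced cells, against 27.1 and 30.6 in pEx5 knockdown cells, and 68.2 and 63.9 in mEx5 induced cells, against 27.8 and 31.9 in mEx5 knockdown cells. Controls were at 57 and 59.8 in pEx5 and at 57 and 56.7 in mEx5. Induced pEx5 libraries thus lay between knockdown and control, and induced mEx5 libraries above both. Over both lines the gain was 24.49 points (adjusted p = 4.8e-07), and the gain in pEx5 was 23.39 points smaller than that in mEx5 (difference -23.39, adjusted p = 0.0206). The 2 junctions had 170 to 248 upstream and 415 to 572 downstream reads in pEx5 knockdown cells, and the downstream junction was the higher one in all 12 libraries.

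Dhdds encodes a subunit of the enzyme that builds the dolichol chain for protein glycosylation. Its 385 nt first intron was at 60 and 59.1 in pEx5 induced cells, against 95.3 and 94.7 in pEx5 knockdown cells, and at 69.2 and 65.9 in mEx5 induced cells, against 89.6 and 90.5 in mEx5 knockdown cells. Control cells were at 47.6 to 54.7. All 4 induced libraries lay between the knockdown and the control libraries. The loss over both lines was -29.03 points (adjusted p = 1.96e-08), and that in pEx5 was larger by 12.99 points (difference -12.99, adjusted p = 0.047). Compared directly, pEx5 minus mEx5 was -8.03 points in induced cells (limma, adjusted p = 0.149) and 4.97 points in knockdown cells (adjusted p = 0.166). Neither passed, so the difference in effect held a part from knockdown cells, whose PSI was near the upper end. Nearly all unspliced reads were at the downstream junction, with 1830 against 14 upstream reads in induced and 2580 against 16 upstream reads in knockdown cells. An annotated exon reached over the downstream junction only, so this value is not that of a whole retained intron. Spliced reads per 1000000 were 6.15, 5.96, 3.5 and 4.79 in induced cells, in the order pEx5 A, pEx5 B, mEx5 A and mEx5 B, against 0.503, 0.572, 1.12 and 1.01 in knockdown cells. Over all events, 0.0703% were called higher and 0.202% lower in this test, against 0.155% of members called lower. Of all introns in the fit, 0.0226% were called, which are these 2 introns. Neither call held when libraries were weighted alike. With 1 library left out, adjusted p was 0.0266 to 0.103 for D4Wsu53e and 0.0402 to 0.197 for Dhdds. The D4Wsu53e call was lost without pEx5 induced A or B, pEx5 knockdown B, mEx5 induced A or mEx5 knockdown A. The Dhdds call held without pEx5 control A or B and in no other such fit.

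**Figure D5:**
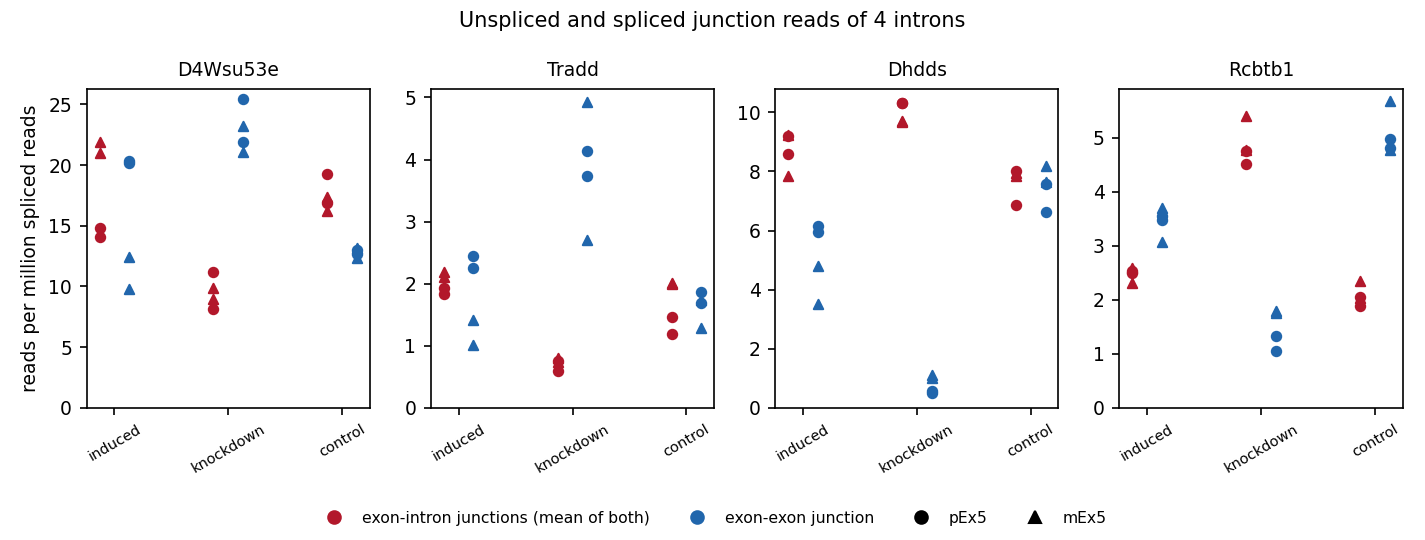
Reads per 1000000 spliced reads of all introns (vertical axes, each from 0) at the exon-intron junctions (red, mean of both) and at the exon-exon junction (blue) of 4 introns, in induced, knockdown and control cells. Circles are pEx5 and triangles mEx5 libraries. In Dhdds the spliced reads are 3.5 to 6.15 in induced and 0.503 to 1.12 in knockdown libraries.

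Induced cells of the pEx5 and mEx5 lines were also compared directly. PSI was higher in pEx5 in 16 members (1.24%) and lower in 25 (1.94%). Among all introns in the fit 0.338% and 0.948% were called, and among all events 1.31% and 1.54%. The member shares were thus near those of all events. In Odz4, a teneurin gene, PSI was 85.7 and 80 in pEx5 and 15.2 and 14.3 in mEx5 induced cells (difference 68.08, adjusted p = 0.0018). Its lines already differed without doxycycline, with 66.7 and 61.3 in pEx5 and 38.1 and 41.2 in mEx5 knockdown cells. Tjap1 was at 30.5 and 30.8 in pEx5 and 71.7 and 64.7 in mEx5 induced cells (difference -37.54, adjusted p = 0.00122), but at 22.1 and 14.9 in pEx5 and 24.8 and 22.7 in mEx5 knockdown cells. Arpp21, a phosphoprotein gene, was at 85.7 and 84.2 in pEx5 and 43.4 and 48.1 in mEx5 induced cells (difference 39.18, adjusted p = 0.0128), and at 87.9 and 91.8 in pEx5 and 90.2 and 100 in mEx5 knockdown cells. The small GTPase gene Rab36 (difference -53.26, adjusted p = 0.0331) and Gm12942 (difference -43.88, adjusted p = 0.0319) were lower in pEx5. In all 5 introns the induced libraries of the lines did not overlap. The shallowest library had 12 reads for Odz4, 13 for Gm12942, 17 for Rab36, 20 for Arpp21 and 86 for Tjap1. Control reads of the Odz4 intron were nearly all at the downstream junction, with 1 read at the upstream junction. Its PSI is thus not that of an intron shown to be retained whole.

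Of the 41 members called between induced lines, 13 differed by at least 10 points the same way between the knockdown cells of the lines, and 35 differed the same way by any size. Between the control cells of the lines 28 of the 41 differed the same way by any size, 6 of them by at least 10 points. Between knockdown cells of the lines, 0.022% of all events and 0.0113% of all introns in the fit were called higher. Among members, knockdown cells themselves gave 1 call. It was Bdh2, a dehydrogenase gene of ketone metabolism, at 100 and 100 in pEx5 and 53.7 and 57.9 in mEx5 knockdown cells (adjusted p = 0.0342). Its control libraries were at 100 and 100 in pEx5 and at 68.1 and 73.1 in mEx5, so pEx5 was also the higher line with the non-targeting siRNA. The Bdh2 intron had 0 upstream and 445 downstream junction reads in the controls. Unadjusted p under 0.05 was found for 137 members between knockdown lines and for 239 between induced lines. The number of calls between induced lines was 15 to 39 with 1 library left out, with 16 calls without pEx5 induced A, 15 without pEx5 induced B and 15 without mEx5 induced A.

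Introns of splicing and decay genes were counted by lists of genes. Genes of the U1 particle and core spliceosome held 5 members in 3 genes. This was 1.66% of their 302 introns of these lengths and reads, against 1.94% over all genes. Of the 5 members, 4 rose on induction and none fell. Over all members in the fit 12.3% were called higher and 3.57% lower, and over all events 8.88% and 2.59%. The median difference of the 5 was 15.72 points, against 2.75 over all members. Prpf40b and Prpf39 encode proteins that act with the U1 particle at the 5′ splice site. The 144 nt Prpf40b intron was at 26.6 to 42.9 in induced, 7.23 to 10.9 in knockdown and 15.5 to 24.7 in control cells (difference 22.2, adjusted p = 0.000479). A second Prpf40b intron of 210 nt gained 20.33 points (adjusted p = 0.0044), and another of 214 nt, at 6.48 points, did not pass (adjusted p = 0.0757). The Prpf39 intron was at 11.35 to 31.6 in induced and 4.8 to 8.75 in knockdown cells (difference 15.72, adjusted p = 0.000122), and that of Prpf38b at 33.5 to 48 in induced and 23.8 to 26.7 in knockdown cells (difference 15.51, adjusted p = 0.00137). In both genes, and in both called Prpf40b introns, all 4 induced libraries lay above all 4 knockdown libraries.

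The only member in a gene of nonsense-mediated decay was the 140 nt intron of the helicase gene Upf1, at 49.9 to 67.7 in induced and 29.1 to 46.3 in knockdown cells (difference 22.2, adjusted p = 0.0145). Ccnl2 and Ccnl1, cyclins that partner with splicing-associated kinases, were listed as genes known for retained introns in mouse cells. Whether the members are the known introns was not checked. In the controls the Ccnl2 intron had 93 upstream and 716 downstream junction reads. The Ccnl2 intron rose by 16.7 points (60.9 to 70.6 in induced, 44.9 to 50.6 in knockdown cells, adjusted p = 0.00385) and that of Ccnl1 by 14.16 points (adjusted p = 0.00164). With D4Wsu53e these were the 3 called of 15 members in the list of genes known for retained introns, whose median difference was 4.93 points. The Gabbr1 intron at 21.91 points did not pass (adjusted p = 0.401). The 5 members in Clk1, Clk2 and Clk4, kinases of SR proteins, had differences of 1.65 to 6.61 points and none passed. The list of Clk and Srpk kinase genes held members in 6.94% of its 72 introns of these lengths and reads, against 1.94% over all genes. Nor did the single members of the SR protein-related Srrm2 (0.2 points, adjusted p = 0.997) and the 3′ end processing gene Cpsf4 (8.81 points, adjusted p = 0.0685) pass, or the introns of Hnrpdl (2.61 points, adjusted p = 0.23) and Hnrnph3 (0.76 points, adjusted p = 0.748). No intron of the U2 and 3′ splice site factors was a member, out of 195. Members made up 1.75% of such introns for SR proteins, 1.69% for hnRNP genes and 0.485% for decay factors. The share was 0.467% for 3′ end processing and export, and 5.43% for the genes known for retained introns.

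Several genes held more than one member. Of 192 genes with 2 or more members in the fit, 23 had at least 2 called higher, 3 had at least 2 called lower and 0 had calls in both directions. Map4k2, a kinase upstream of JNK, held the most with 7, all of them not called, with differences of -2.35 to 16.16 points. Clec18a, Plxna3 and Sfi1 held 6 each. In the lectin gene Clec18a 2 of 6 were higher (22.17 and 19.24 points, adjusted p = 0.0121 and 0.0242), and in the semaphorin receptor gene Plxna3 and the centrin-binding gene Sfi1 none was called. Man2c1, a cytosolic mannosidase gene chosen after its values were seen, had all 5 members called higher, by 11.94 to 19.39 points. Its 161 nt intron was at 49.3 and 49.6 in pEx5 and 72.8 and 75.6 in mEx5 induced cells, against 33.8 and 38.1 in pEx5 and 47.6 and 50.1 in mEx5 knockdown cells. Introns of one gene share their transcripts and are not independent.

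Knockdown against control is given as values only, since the controls chose the members. The median difference was 0 points (quartiles -6.59 and 6.21), with 668 members above and 688 below 0. The largest higher values were those of Rcbtb1 (47.54 points), the cadherin gene Celsr3 (46.69), the bromodomain gene Brd2 (42.37), the neuronal nitric oxide synthase gene Nos1 (42.3), Dhdds (42.01), Cep70 (41.61), BC024814 (41.55) and Ccdc45 (40.92). The largest lower values were those of Ccdc136 (-46.31), 2610318N02Rik (-43.05), the protease gene Prss36 (-33.82), Tradd (-33.6), the SNARE gene Vamp4 (-31.85), the RNA polymerase III repressor gene Maf1 (-31.21), Fam132a (-31.2) and the chloride channel gene Clcn2 (-30.6). Brd2, Celsr3 and Clcn2 rested on as few as 10 or 11 reads in a library. On induction, Maf1 was at 23.8 to 47.4 in induced, 7.49 to 10.9 in knockdown and 26.8 to 49.1 in control cells (induced minus knockdown 23.12, adjusted p = 0.000585). Vamp4 was at 19.4 to 38.3 in induced, 10.8 to 16.1 in knockdown and 32.4 to 52.8 in control cells (induced minus knockdown 15.53, adjusted p = 0.00931). Prss36 was at 42.9 to 72.1 in induced, 46.7 to 81 in knockdown and 82.6 to 100 in control cells (induced minus knockdown 3.39, adjusted p = 0.694). The comparisons of induction and of knockdown share the knockdown libraries, so no relation between them is drawn.

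Host genes were read from the authors' deposited table, which gave values for 922 of the 1061 host symbols. Their median group RPKM was 14.2, against 21.2 for the 7364 genes that held other introns only. In that deposited table, the 111 hosts of introns higher on induction had 9.01% called higher and 34.2% called lower at an FDR under 0.05 on induction in mEx5, and 18.9% higher and 18% lower in pEx5. The 37 hosts of introns lower on induction had 35.1% called higher and 8.11% lower in mEx5, and 37.8% higher and 8.11% lower in pEx5. Of all 18576 genes in the authors' deposited table, 10.7% were higher and 9.25% lower in mEx5, and 10.7% higher and 8.63% lower in pEx5. For the 919 hosts of any member with a fold change there, 15.3% were higher and 16.1% lower in mEx5. In pEx5 20.1% of these 919 hosts were higher and 10.6% lower. Hosts of introns with more retention were thus more often called lower than higher in mEx5, while those of introns with less retention were more often called higher in both lines. In pEx5, the 18.9% called higher among hosts of introns with more retention was near the 20.1% of all hosts. The 18% of them called lower was above the 10.6% of all hosts. In bulk RNA, fewer cells with a transcript and less of it per cell cannot be told apart. The authors' log2 fold change went against their own group RPKM in 4.5% of the host genes called on induction in mEx5 and in 3.55% of those in pEx5.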

How the data were processed

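RNA of 12 N2A libraries (6 groups of 2) was sequenced from stranded libraries of polyadenylated RNA, per the labels. The authors' deposited vast-tools table gives PSI in percent per event and library, and a quality text with corrected inclusion and exclusion reads, junction reads and a p-value for junction balance. As deposited, 99.84% of the PSI values of events with 10 or more reads throughout lay within 0.02 points of these reads. Event positions and assembly are not given in the sources used here in a form that matched mm10, so members were matched to GENCODE M21 (GRCm38) by symbol, chromosome, strand, intron length and at least 1 flanking exon length. A second deposited table holds the authors' group PSI, a score, which was not used for results. The deposited expression table holds RPKM per group, log2 fold changes and FDR (an adjusted p-value) by the authors, with Salmon 0.14.1 and edgeR named in the submitters' processing notes.

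Members on chromosome 18 were left out of the printed sequences, which come from the GENCODE transcripts. The sequence of 1 further intron is not reported here. Events with at least 10 reads in 12 libraries and a mean PSI of 5 to 95 (22770) were fitted with limma 3.58.1 in R 4.3.3. The fit used the logit of inclusion reads, a pseudocount of 0.5 reads, weights from both read numbers with a variance floor of 0.01, and 1 coefficient per group. The script was tested on simulated data. Tables were joined in Python with pandas. The members, lists, test and alternatives were chosen with earlier results of these data known. Named introns were the 12 largest called differences each way on induction with the same sign in each line, the 10 highest control PSI values with 50 or more reads, the 8 largest knockdown differences each way, up to 4 per gene list, up to 5 per comparison of lines, the 3 on either side of the threshold and the 4 genes with most members. Leaving out 1 library, other filters and weights, and a replicate block were tried.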

Additional observations from a re-analysis of the deposited data

Results flagged for a closer look

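The effect of induction differed between the lines at 2 introns, by a test of the difference itself. For D4Wsu53e the induced minus knockdown difference in pEx5 minus that in mEx5 was -23.39 points (limma, adjusted p = 0.0206, lower in both pEx5 induced libraries than in both mEx5 ones). For Dhdds it was -12.99 points (adjusted p = 0.047, likewise). Induced cells of the lines, compared directly, did not pass at Dhdds (-8.03 points, limma, adjusted p = 0.149), unlike at D4Wsu53e (-24.39 points, adjusted p = 0.000182). With 1 of 12 libraries left out in turn, D4Wsu53e was called in 7 fits and Dhdds in 2. Groups of 2 libraries were not searched for outlying samples.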

How the results depend on the processing

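Of 470 recomputed values of the 24 introns named by size on induction, 418 kept their sign and passed the test, 52 kept their sign and did not pass, and 0 changed sign; 8 introns passed under every alternative. Without the range of mean PSI, 16 of these 24 introns did not pass. Among them were Ccdc136 (limma, adjusted p = 0.0919), Rgl3 (adjusted p = 0.0871) and Plekha6 (adjusted p = 0.06). When libraries were weighted alike, 4 did not pass. Calls among members with both lines (205) numbered 75 without the range of mean PSI and 132 at 15 points. Calls in pEx5 (95) numbered 41 unweighted and 21 without the range, and those in mEx5 (136) numbered 42 without the range. Between induced lines (41 calls) there were 17 unweighted, 14 without the range and 24 at a variance floor of 0.05. Between knockdown lines (1 call) there were 2 without the range, 4 when introns were fitted alone and 0 with the replicate block. For the difference between induction effects (2 calls) there were 0 unweighted, 0 without the range, 0 at a variance floor of 0.05, 1 at 15 points and 5 with introns alone. With 1 library left out the calls ranged from 150 to 207 with both lines, 41 to 93 in pEx5, 69 to 132 in mEx5, 15 to 39 between induced lines, 0 to 1 between knockdown lines and 0 to 3 for the difference of effects; a group of 1 library was assumed to vary like the others. The median difference of members ranged from 2.393 to 2.891 points on induction and from -0.386 to 0.037 points for knockdown against control. The cause of these changes was not tested, apart from the fewer libraries or the larger number of events in the adjustment.

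The letters A and B do not pair the libraries by the labels, and deviations of same-lettered groups correlated at -0.066 to 0.048. With the replicate block the calls were 206, 91, 135, 43 and 2 for both lines, pEx5, mEx5, induced lines and the difference of effects. The last 2 were D4Wsu53e (adjusted p = 0.028) and BC018507 (113.53 points, adjusted p = 0.0331), and Dhdds was not called (adjusted p = 0.0683). Depth limits single introns: 1079 of the 1378 had 20 or more reads in every library and 638 had 50 or more.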
